A study of Drosophila melanogaster with 6 samples.

Results

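Septate junctions seal the spaces between epithelial cells in insects, and adherens junctions hold the same cells together. In flies the septate junctions of the ectoderm, the trachea and the glia are called pleated, and those of the midgut and the Malpighian tubules are called smooth, each with components of its own. Apical and basolateral polarity proteins set where along the cell side these junctions form. Flies kept on a glucose-supplemented diet were sequenced to ask which transcripts differed from those of flies on the unmodified diet. The genes described here are 37 junction and polarity names that were matched by symbol to the count files. They stood for 36 of the 17737 genes in the files, because aka and bark are names of the same gene. By role, 4 genes belong to smooth septate junctions, 19 to pleated septate junctions and 13 to adherens junctions or cell polarity. The 19 pleated genes are 17 genes of the bicellular junction and 2 of the tricellular junction, where corners of cells meet. The last group holds 5 adherens genes, 5 apical polarity genes and 3 basolateral polarity genes.

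RNA was sequenced from whole adult virgin males of the genotype w1118 that had developed on cornmeal food. On emergence one set was moved to chemically defined holidic food (HF) and the other to the same food supplemented with 50 g/L glucose (GSF), and both stayed there for 20 days at 25°C. Each diet had 3 libraries, each made from 5 flies pooled. Each library held between 51826530 and 66493536 counts on genes, of which ribosomal RNA genes took between 17.9% and 18.6% on HF and between 20.6% and 24.5% on GSF. The diets fell apart on the first principal component, with 50.4% of the variance. Of all genes, 13373 passed the filter of 1 CPM (counts scaled to a common library size) or more in 3 or more libraries, and all 36 junction and polarity genes were among them, with between 376 and 72715 counts per library. Of the 36 genes, 9 share annotated exon with another gene, 2 of them (alpha-Cat and l(2)gl) on the same strand. Reads of such stretches could have been counted for either gene or for both. As a check of the labels, testis markers summed to between 776 and 1070 CPM per library, and ovary markers to between 7.27 and 10.4 CPM. A gene was called where edgeR's quasi-likelihood test gave p under 0.01 and an adjusted p (FDR, Benjamini-Hochberg over all tested genes) under 0.05. A log2 fold change is GSF minus HF, given with its standard error (SE) or its 95% interval. Since RNA of whole flies was measured, fewer cells of a type and less RNA per cell cannot be told apart.

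Of the 36 genes, 4 rose on GSF and 0 fell. The 4 were mesh of the smooth septate junction, p120ctn of the adherens junction, par-6 of the apical polarity complex and l(2)gl of the basolateral complex, with log2 fold changes between 0.38 and 0.52. None of the 19 pleated septate genes passed. Of these 19, 5 were higher at an unadjusted p under 0.05, and DESeq2 and the exact test of edgeR each called 1, bark. Among all tested genes 2.0% were called higher and 3.14% were called lower. For the count of 0 lower, 0 genes were also lower at an unadjusted p under 0.05, and 0 with DESeq2 or with edgeR's exact test. At an unadjusted p under 0.05, 15 of the 36 genes were higher, where 9.77% of all tested genes were. The diets were fully separate, with GSF above HF, in 13 of the 36 genes, against 12.3% of all tested genes. The fitted log2 fold change was above 0 for 32 of the 36 genes, against 52.3% of all tested genes. When the replicate number entered the model as a block, 12 of the 36 genes were called, all higher, where the block called 6.80% of all tested genes higher. DESeq2 called 7 (4.52% of all tested genes higher), adding Ssk, bark and alpha-Cat to the 4, and the exact test of edgeR called 6 (3.50%), adding Ssk and bark.

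The median log2 fold change was 0.46 over the 4 smooth septate genes, 0.10 over the 19 pleated septate genes and 0.20 over the 13 adherens and polarity genes, beside 0.01 over all tested genes. With 1 library left out the pleated median ran from 0.00037 (without HF replicate 3) to 0.23 (without HF replicate 1). The smooth median ran from 0.32 (without GSF replicate 1) to 0.58 (without GSF replicate 3), and the adherens and polarity median from 0.13 (without GSF replicate 2) to 0.24 (without HF replicate 2 or GSF replicate 1). The smooth group held values from 0.05 to 0.52, the pleated group from -0.19 to 0.37 and the adherens and polarity group from 0.03 to 0.51. Each group held estimates close to 0. They were 0.05 for hoka (smooth), -0.0037 for Atpalpha (pleated) and 0.03 for arm and scrib (adherens and polarity). Differences between genes of a group were tested only for the ratios further down, where no pair could pass a threshold of 0.05. All 4 smooth septate genes had values above 0, as did 15 of the 19 pleated genes. All 13 adherens and polarity genes were above 0 too, but 5 of them (arm, baz, crb, sdt and scrib) were below 0 once a trend with gene length, described further down, was removed. The 4 fitted values below 0 were those of vari, Atpalpha, nrv1 and bou, all pleated.

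**Figure D1:**
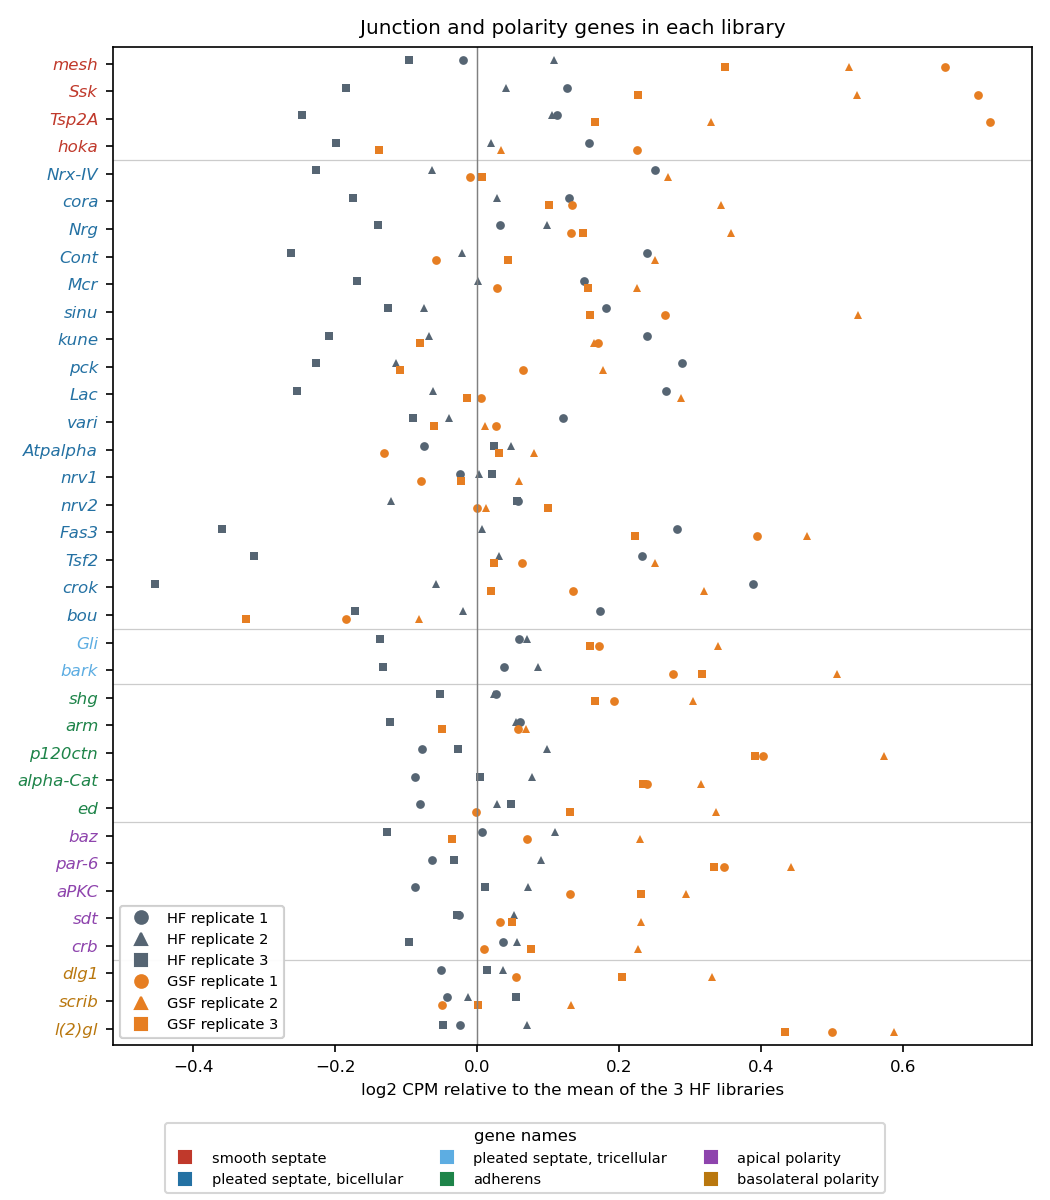
Level of each of the 36 genes in each of the 6 libraries, as log2 CPM relative to the mean of the 3 HF libraries of that gene (x axis). Grey symbols are HF and orange symbols GSF, with the replicate number given by the shape, and gene names are coloured by group. In 13 genes the orange symbols all lie to the right of the grey ones, and GSF replicate 1 is farthest right for the 4 smooth septate genes.

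Mesh, Ssk and Tsp2A depend on each other for their place in the smooth septate junction, and hoka encodes a further small membrane protein of the same junction. The mesh gene (FBgn0051004, chromosome 3R, 31178389 to 31195762 of BDGP6.54, exonic length 5175 bp) encodes a single-pass membrane protein. Its level was 391, 427 and 371 CPM in HF replicates 1 to 3 and 626, 570 and 505 CPM in GSF replicates 1 to 3. All GSF libraries lay above all HF libraries, with a log2 fold change of 0.52 (SE 0.10, adjusted p = 0.0275, as for all adjusted p values below from the quasi-likelihood test of edgeR unless another is named). The call was lost when a trend of the counts with gene length was removed (0.43, adjusted p = 0.0692). Leaving out a library in turn lost the call in 4 of 6 fits, over which the values ran from 0.44 to 0.60 and the adjusted p from 0.0388 to 0.109.

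Ssk (FBgn0036945, chromosome 3L, 20188522 to 20189779, exonic length 898 bp) encodes a small multi-pass membrane protein. Its level was 129, 122 and 104 CPM on HF and 193, 171 and 138 CPM on GSF. The diets did not overlap, but the lowest GSF library stood close to the highest HF library, and the log2 fold change of 0.50 (SE 0.13) missed the threshold with an adjusted p of 0.0796. With the replicate block the same change had an SE of 0.06 and an adjusted p of 0.00611. Tsp2A (FBgn0024361, chromosome X, 1346553 to 1348143), a tetraspanin, had 83.9, 83.6 and 65.4 CPM on HF and 128, 97.6 and 87.1 CPM on GSF. Here too the diets did not overlap, and GSF replicate 1 stood far above the other GSF libraries. The log2 fold change was 0.43 (SE 0.16, adjusted p = 0.187, or 0.0235 with the block), and without GSF replicate 1 it was 0.25.

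The hoka gene (FBgn0035583, chromosome 3L, 4898900 to 4900869, listed by the authors under its older symbol CG13704) had 73.7, 67.0 and 57.6 CPM on HF and 77.3, 67.7 and 60.0 CPM on GSF. The libraries of the diets interleaved, and the order of the replicates was the same on both diets. The log2 fold change was 0.05 with a 95% interval from -0.23 to 0.33 (adjusted p = 0.901). The interval of hoka overlapped those of mesh, Ssk and Tsp2A, and the mesh to hoka ratio is compared within libraries further down. All 4 smooth septate genes were highest of the 6 libraries in GSF replicate 1 and lowest in HF replicate 3. Of the other 32 genes, 29 had their highest GSF value in replicate 2.

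Pleated septate junctions are built on a core of membrane proteins, which bind one another and a cytoplasmic scaffold. The core membrane proteins are neurexin IV (Nrx-IV), contactin (Cont) and neuroglian (Nrg). Nrg, an immunoglobulin-type adhesion protein, had 117, 122 and 104 CPM on HF and 125, 147 and 127 CPM on GSF. Its diets did not overlap by a margin of a few CPM, with a log2 fold change of 0.22 (SE 0.09, adjusted p = 0.253). Nrx-IV had 93.2, 74.9 and 66.9 CPM on HF and 77.8, 94.3 and 78.7 CPM on GSF. Cont, which is anchored to the membrane by a lipid, had 168, 140 and 119 CPM on HF and 137, 169 and 147 CPM on GSF. In both genes HF replicate 1 lay among the GSF libraries, and the log2 fold changes were 0.09 (95% interval -0.22 to 0.40) and 0.08 (-0.23 to 0.40).

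The cytoplasmic partner of this core is Coracle, a FERM-domain protein encoded by cora, whose protein the study stained in the gut. The cora transcript had 355, 331 and 287 CPM on HF and 356, 412 and 348 CPM on GSF. GSF replicate 1 and HF replicate 1 were about equal, only GSF replicate 2 lay clear of the HF libraries, and the log2 fold change was 0.20 (SE 0.10, 95% interval -0.04 to 0.44, adjusted p = 0.358, or 0.159 with the block). The MAGUK scaffold gene vari had 57.2, 51.2 and 49.4 CPM on HF and 53.6, 53.0 and 50.4 CPM on GSF. The GSF libraries of vari all fell within the range of the HF libraries, with a log2 fold change of -0.01 (95% interval -0.18 to 0.17). Of its 2867 bp of exon, 437 bp overlap Pomp on the other strand.

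Na+/K+-ATPase is part of the pleated junction besides pumping ions, and the genes of its catalytic subunit and of beta subunits had overlapping libraries. The catalytic subunit gene Atpalpha had 978, 1065 and 1047 CPM on HF and 940, 1089 and 1052 CPM on GSF, with a 95% interval of the log2 fold change from -0.19 to 0.18. The beta subunit gene nrv1 had 245, 250 and 253 CPM on HF and 236, 260 and 245 CPM on GSF, with an interval from -0.17 to 0.14. For nrv2, another beta subunit, the level was 186, 165 and 186 CPM on HF and 179, 181 and 192 CPM on GSF, with an interval from -0.14 to 0.21. A further beta subunit gene, nrv3, which is not among the 36, is given with the related genes. Together with vari, Atpalpha and nrv1 were the only 3 of the 36 genes whose 95% interval lay wholly within 0.2 of 0 on the log2 scale. For the other 33 genes the interval also held larger differences.

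The claudin family, which in vertebrates forms the strands of tight junctions, is represented by sinu, kune and pck. The sinu gene had 23.1, 19.4 and 18.7 CPM on HF and 24.5, 29.6 and 22.8 CPM on GSF. GSF replicate 3 fell just under HF replicate 1, so the diets overlapped, and the log2 fold change of 0.33 (SE 0.12) had an adjusted p of 0.192. For kune and pck the highest of all 6 values was in HF replicate 1, at 33.9 and 35.6 CPM, and the log2 fold changes were 0.09 and 0.05. The intervals of the claudin genes, 0.04 to 0.62 for sinu, -0.21 to 0.39 for kune and -0.28 to 0.38 for pck, overlapped one another.

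Further proteins of the pleated junction are the immunoglobulin-type adhesion proteins Fas3 and Lac, the macroglobulin-like Mcr, the iron-binding Tsf2, and crok and bou of the Ly6 family. Fas3 had 72.4, 59.9 and 46.4 CPM on HF and 78.3, 82.3 and 69.5 CPM on GSF. HF replicate 3 was low and GSF replicate 3 fell just under HF replicate 1, with a log2 fold change of 0.37 (SE 0.15, adjusted p = 0.244, or 0.0442 with the block). Lac, Mcr, Tsf2 and crok had log2 fold changes between 0.10 and 0.17, all with overlapping libraries. Of these crok was the least precisely measured of the 36 genes, with 11.2, 8.20 and 6.22 CPM on HF, 9.37, 10.6 and 8.65 CPM on GSF and an interval from -0.30 to 0.63. The bou gene had the lowest log2 fold change of the 36, at -0.19 (SE 0.11, adjusted p = 0.411). Its levels were 14.6, 12.7 and 11.5 CPM on HF and 11.4, 12.2 and 10.3 CPM on GSF, so that a single GSF library lay within the HF range and the others below it.

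Both genes of the tricellular junction had separate diets, and bark had the lowest adjusted p of the pleated group. Gliotactin, a cholinesterase-like membrane protein encoded by Gli, had 71.8, 72.3 and 62.6 CPM on HF and 77.6, 87.2 and 76.9 CPM on GSF. The bark gene (also aka, chromosome 2L, 3787167 to 3802726) encodes a large membrane protein and had 60.9, 62.9 and 54.1 CPM on HF and 71.8, 84.3 and 73.9 CPM on GSF. In both genes the lowest GSF library stood above the highest HF library. The log2 fold change was 0.23 (SE 0.08, adjusted p = 0.192) for Gli and 0.37 (SE 0.09, adjusted p = 0.0616) for bark. With the block both were called, with adjusted p = 0.0484 and 0.0138, and bark also with DESeq2 (0.00824) and the exact test of edgeR (0.0220). Thus the block called 3 of the 19 pleated genes, Fas3, Gli and bark, where it called 6.80% of all tested genes higher. Of the 17 bicellular genes it called 1, Fas3, or 5.88%.

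**Figure D2:**
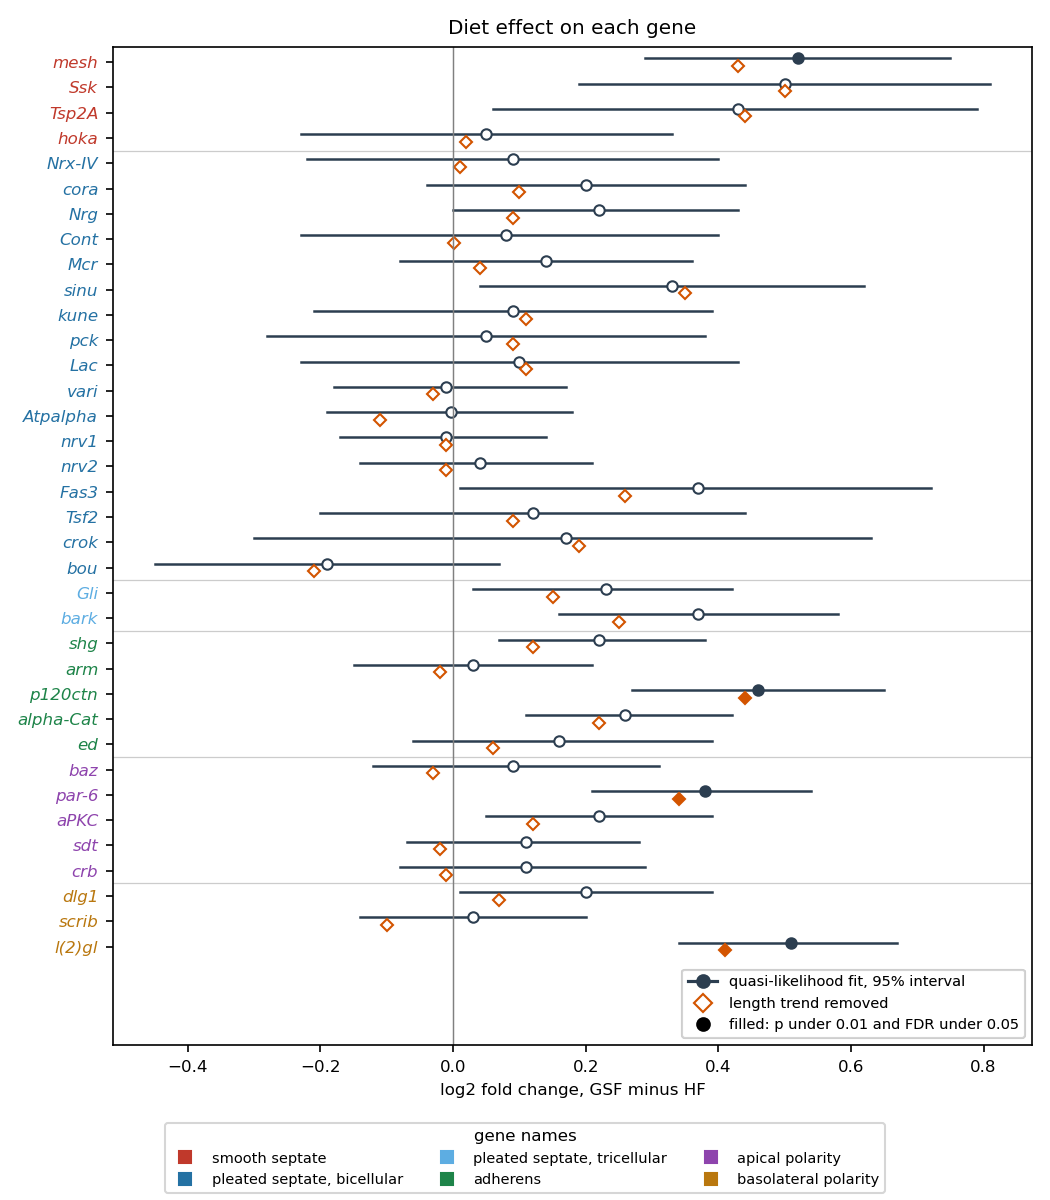
Log2 fold change of each of the 36 genes, GSF minus HF (x axis). Dark circles with lines are the quasi-likelihood estimate and its 95% interval, diamonds are the estimate after the trend with gene length was removed, and filled symbols passed p under 0.01 and FDR under 0.05. The 4 filled circles are mesh, p120ctn, par-6 and l(2)gl, and the diamond of mesh is open.

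At adherens junctions E-cadherin (shg) binds its like on the next cell, and catenins join its tail to actin. The gene p120ctn (FBgn0260799, chromosome 2R, exonic length 2685 bp) encodes the catenin that binds the cadherin tail near the membrane. It had 35.0, 39.6 and 36.3 CPM on HF and 48.9, 55.0 and 48.5 CPM on GSF. The diets were well separated, with a log2 fold change of 0.46 (SE 0.08, adjusted p = 0.0215), and the call stood with the length trend removed (0.44, adjusted p = 0.0237). With a library left out the value ran from 0.40 to 0.53, but the call held in only 1 of 6, the fit without HF replicate 2.

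The estimates of the other members of the complex were smaller, and their difference from that of p120ctn was not tested. For alpha-Cat, the catenin that reaches actin, the level was 64.5, 72.4 and 68.8 CPM on HF and 81.0, 85.3 and 80.6 CPM on GSF. For shg it was 54.7, 54.6 and 51.8 CPM on HF and 61.3, 66.2 and 60.2 CPM on GSF. Both genes had no overlap between the diets, and both missed the threshold, with log2 fold changes of 0.26 (SE 0.07, adjusted p = 0.0727) and 0.22 (SE 0.07, adjusted p = 0.111). The block called both, with adjusted p = 0.0214 and 0.0348. The annotated exons of alpha-Cat share 408 bp with a transposon copy on the same strand.

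Beta-catenin, encoded by arm, also carries the Wnt signal. Its transcript had 212, 211 and 186 CPM on HF and 211, 213 and 196 CPM on GSF, which overlapped almost fully. The log2 fold change of arm was 0.03 (95% interval -0.15 to 0.21, adjusted p = 0.919), and this interval lay below that of p120ctn, which ran from 0.27 to 0.65. The ed gene encodes Echinoid, an immunoglobulin-type protein of the adherens junction. It had 38.5, 41.5 and 42.1 CPM on HF and 40.6, 51.4 and 44.6 CPM on GSF, with a log2 fold change of 0.16 (95% interval -0.06 to 0.39).

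Apical identity is set by the Par complex (baz, par-6, aPKC) and the Crumbs complex (crb, sdt). The par-6 gene (FBgn0026192, chromosome X, 17703352 to 17707096, exonic length 3032 bp) encodes the adaptor that holds aPKC. It had 29.2, 32.5 and 29.9 CPM on HF and 38.9, 41.5 and 38.5 CPM on GSF. The lowest GSF library stood above the highest HF library by more than the range within either diet, and the log2 fold change was 0.38 (SE 0.07, adjusted p = 0.0295). The call stood with the length trend removed (0.34, adjusted p = 0.0339) and, with a library left out, only in the fit without HF replicate 2.

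The kinase gene aPKC had 49.9, 55.8 and 53.5 CPM on HF and 58.1, 65.1 and 62.3 CPM on GSF. The diets did not overlap, with a log2 fold change of 0.22 (SE 0.07, adjusted p = 0.147, or 0.0284 with the block). The scaffold gene baz, the transmembrane organizer gene crb and the MAGUK gene sdt each had overlapping libraries, with log2 fold changes of 0.09, 0.11 and 0.11. All 3 of these estimates were below 0 after removal of the length trend, at -0.03 for baz, -0.01 for crb and -0.02 for sdt.

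The basolateral proteins Scribble, Discs large and Lethal giant larvae act together against the apical complexes. The l(2)gl gene (FBgn0002121, exonic length 5986 bp) lies near the tip of chromosome 2L, at 9839 to 21376. It had 102, 109 and 101 CPM on HF and 147, 156 and 140 CPM on GSF. The gap between the diets exceeded the range within either, and the log2 fold change of 0.51 (SE 0.07, adjusted p = 0.0118) had the lowest adjusted p of the 36 genes. The call stood with the length trend removed (0.41, adjusted p = 0.0206) and in 4 of 6 fits with a library left out, failing without HF replicate 1 (0.0567) and without GSF replicate 1 (0.0562). Of its exons, 62 bp on the same strand and 21 bp on the other strand are shared with transposon copies.

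The partners of l(2)gl, compared with it as ratios further down, had smaller estimates. The dlg1 gene had 92.0, 97.7 and 96.2 CPM on HF and 99.0, 120 and 110 CPM on GSF. Its diets did not overlap, although GSF replicate 1 exceeded HF replicate 2 only slightly, and the log2 fold change was 0.20 (SE 0.08, adjusted p = 0.234, or 0.0749 with the block). The scrib gene had 267, 272 and 285 CPM on HF and 266, 301 and 275 CPM on GSF. These overlapped, and the 95% interval of its log2 fold change, -0.14 to 0.20, lay below that of l(2)gl, 0.34 to 0.67.

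Partners within a complex were compared as log2 ratios of CPM within each library, over 8 pairs, which leaves out any factor that scales both genes alike. The ratio of mesh to hoka was 2.41, 2.67 and 2.69 on HF and 3.02, 3.07 and 3.07 on GSF, a difference of 0.47. The ratio of scrib to l(2)gl was 1.38, 1.32 and 1.5 on HF and 0.85, 0.95 and 0.97 on GSF, a difference of -0.48. In both the diets were separate, with GSF higher in the first and lower in the second. The ratio of dlg1 to l(2)gl went from -0.13 ± 0.05 on HF to -0.44 ± 0.12 on GSF (mean ± SD, n = 3), and that of par-6 to aPKC from -0.80 ± 0.04 to -0.64 ± 0.06, again without overlap. For these 4 pairs the two-sided exact permutation test gave p = 0.1, the smallest that 3 libraries against 3 allow, or 0.2 adjusted over the 8 pairs, so no pair could pass a threshold of 0.05. Since the diets were separate in these 4, any pairing of libraries had to share the direction, so pairing by replicate number adds no support. Leaving out a library gave differences of 0.37 to 0.51 for mesh to hoka and -0.52 to -0.43 for scrib to l(2)gl.

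In the other 4 pairs the libraries overlapped. The differences were 0.08 for Ssk to Tsp2A, -0.05 for nrv1 to nrv2, 0.04 for alpha-Cat to shg and -0.0015 for sdt to crb. The ratio of sdt to crb was 0.21 on average on both diets, with all 6 libraries between 0.15 and 0.28.

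**Figure D3:**
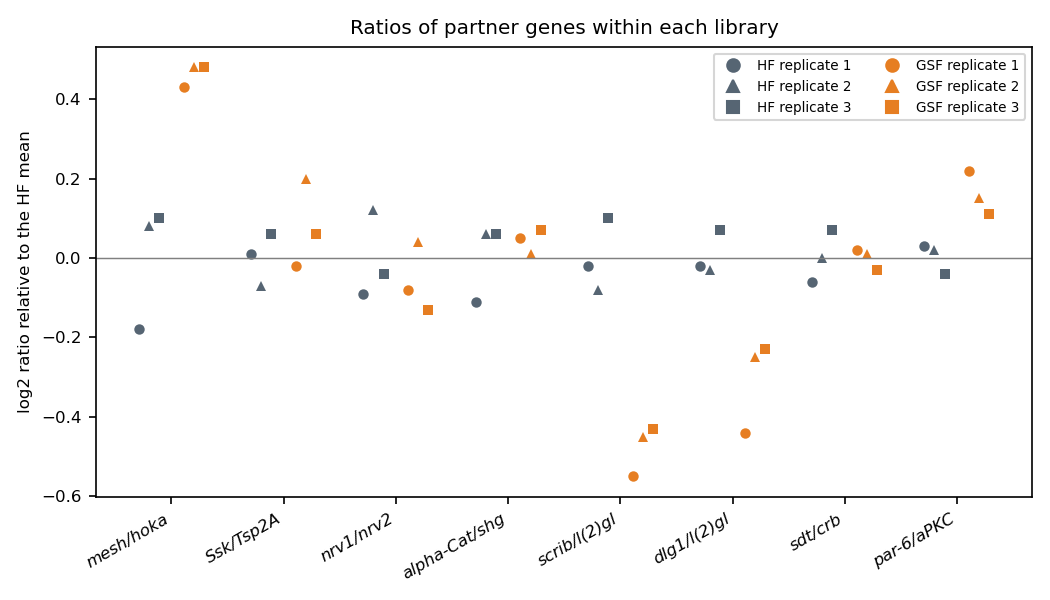
Log2 ratio of the CPM of 2 partner genes within each library, relative to the mean of the 3 HF libraries for that pair (y axis), for 8 pairs (x axis). Grey symbols are HF, orange symbols GSF, and shapes are replicate numbers. The diets are separate for mesh/hoka, scrib/l(2)gl, dlg1/l(2)gl and par-6/aPKC, and overlap for the other 4 pairs.

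Levels of different genes were compared per kilobase of annotated exon, a scale that understates genes with many alternative exons. On HF the highest level was that of Atpalpha at 154 ± 6.90 CPM per kb (SD, n = 3), and the next were Ssk at 132 ± 14.3, nrv1 at 113 ± 1.76, hoka at 96.9 ± 11.9, mesh at 76.6 ± 5.55 and Tsp2A at 74.9 ± 10.2. Thus all 4 smooth septate genes and pump subunit genes filled the top of the order, and hoka was at a higher level per length than mesh and Tsp2A on HF. On GSF the level of Ssk was 187 ± 30.6 CPM per kb beside 154 ± 11.6 for Atpalpha, 112 ± 5.44 for nrv1 and 110 ± 11.7 for mesh. Neighbours in this order mostly did not differ beyond their spread, among them mesh and Tsp2A on both diets, and Tsp2A (101 ± 20.6) and hoka (100 ± 12.7) on GSF.

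Below these came arm at 56.9 and cora at 53.7 CPM per kb on HF, then nrv2 at 50.2 and Lac at 39.3. The adherens and polarity genes other than arm were lower, between 6.33 for ed and 19.7 for alpha-Cat. The lowest of all was bark, with 5.80 ± 0.453 CPM per kb on HF and 7.50 ± 0.656 on GSF. Between the diets p120ctn moved from rank 23 to rank 16 of the 36 genes and l(2)gl from rank 17 to rank 13. The bou gene, which was not called, went from rank 15 to rank 22 with 18.4 ± 2.22 CPM per kb on HF and 16.1 ± 1.35 on GSF.

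**Figure D4:**
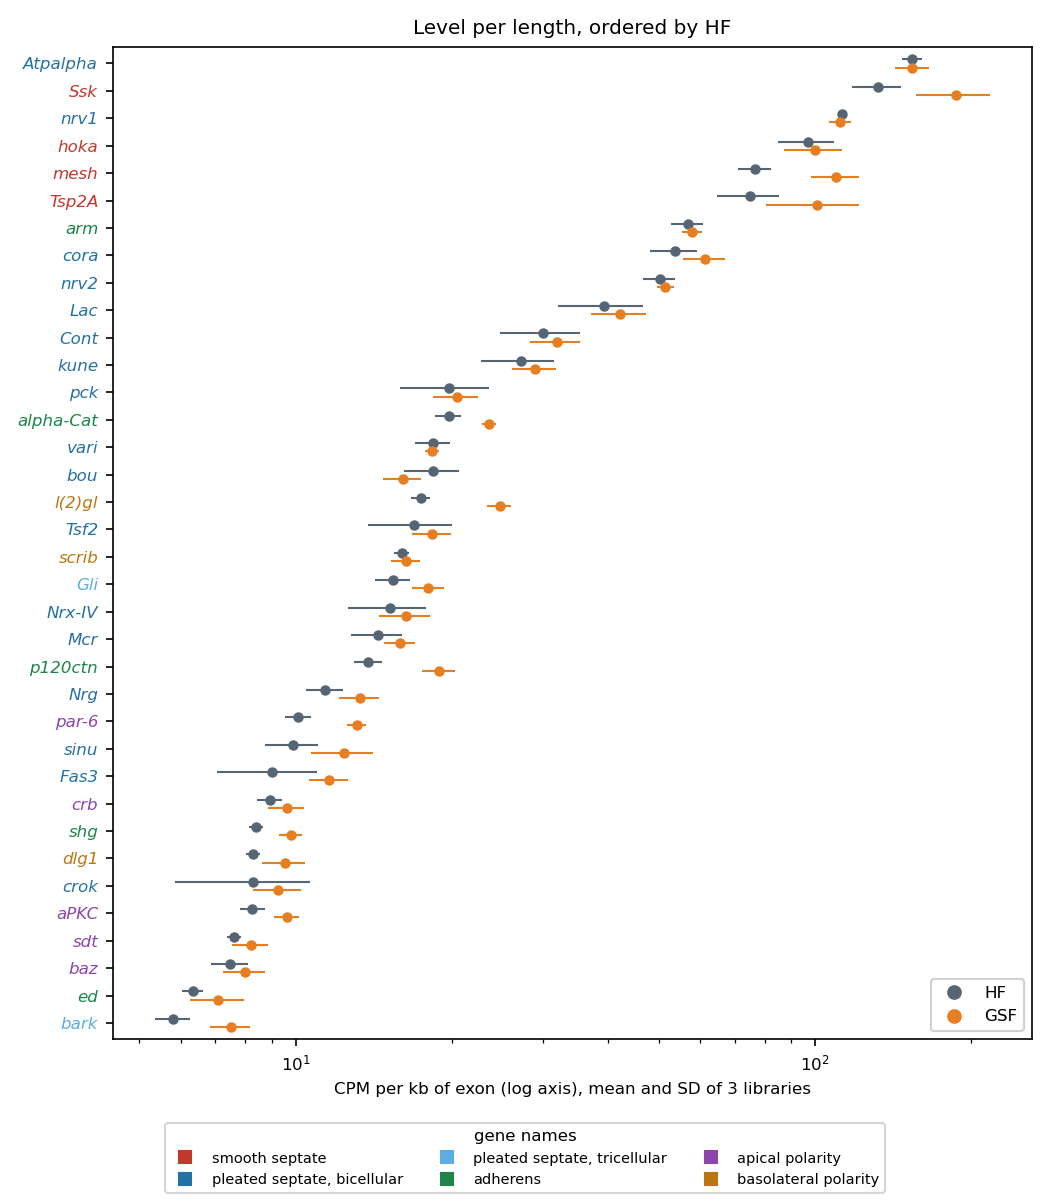
Level of each of the 36 genes per kilobase of annotated exon (x axis, log scale), ordered by the HF value. Points are means of 3 libraries and bars are SD, with HF in grey and GSF in orange. Smooth septate and pump genes hold the first 6 places on HF, and bark is last at 5.80.

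Many junction genes are long, and long genes had higher values on GSF in these libraries in general. The median exonic length was 4605 bp for the 36 genes and 1767 bp for all tested genes, and 29 of the 36 were longer than that median. In the longest quintile of tested genes, from 3544 bp, 75.1% had a log2 fold change above 0, 22.3% had every GSF library above every HF library and 2.86% were called higher. Of the 36 genes 21 fell in this quintile, where 20 had a value above 0, 8 had separate diets and 2 were called, mesh and l(2)gl. Of the 15 shorter genes, 5 had separate diets and 2 were called, p120ctn and par-6. In the 4 shorter quintiles between 6.59% and 14.4% of all tested genes had every library higher on GSF, and between 1.06% and 2.63% were called higher. Ssk, Tsp2A and hoka are all short, at 898, 1037 and 682 bp.

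When a smooth trend of each library with exonic length was removed, 3 of the 36 genes were called higher (p120ctn, par-6 and l(2)gl), where 1.90% of all tested genes were. The group medians were then 0.43 for smooth septate, 0.09 for pleated septate and 0.07 for adherens and polarity genes. The last of these was the one that moved, from 0.20. With the length trend removed and the block together, 8 genes were called: mesh, Ssk, Tsp2A, bark, p120ctn, alpha-Cat, par-6 and l(2)gl. The background of that fit was 5.42% of tested genes higher. Fas3, Gli, shg and aPKC, called with the block alone, were not among them.

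**Figure D5:**
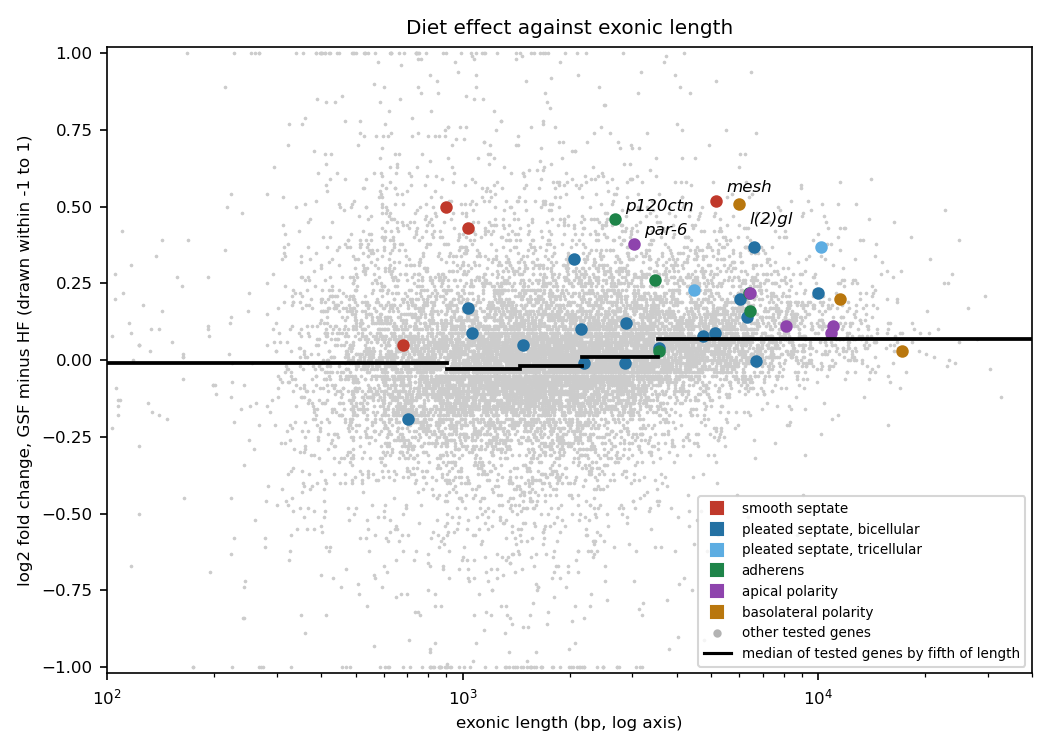
Log2 fold change (y axis, GSF minus HF, values beyond 1 or -1 drawn at the edge) against exonic length in bp (x axis, log scale). Coloured points are the 36 genes by group, grey points all other tested genes with a length, and black lines the median of all tested genes in each quintile of length. The line is at 0.07 in the longest quintile, which holds 21 of the 36 genes, and the 4 named genes were called.

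The libraries differed in ways that ran across the genes. Of the 36 genes, 25 were lowest of all 6 libraries in HF replicate 3 and 26 were highest in GSF replicate 2. Relative to the HF mean, the median over the smooth septate genes was 0.68, 0.43 and 0.20 in GSF replicates 1 to 3. Over the pleated genes it was 0.06, 0.25 and 0.03, and over the adherens and polarity genes 0.07, 0.30 and 0.17. The smooth septate genes thus stood highest in GSF replicate 1 and the other groups in GSF replicate 2. No gene of the 36 was called without HF replicate 1 or without GSF replicate 1, where 0.36% and 0.384% of all tested genes were called higher. Without HF replicate 3 (1.68% called higher in all) and without GSF replicate 2 (0.684%) the only call was l(2)gl. Without GSF replicate 3 (0.835%) the calls were mesh, Ssk and l(2)gl, and without HF replicate 2 (1.39%) they were mesh, p120ctn, par-6 and l(2)gl, as with all libraries.

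Markers of the tissues in which these junctions lie were read beside these results. The midgut enterocyte list (9 genes) summed to between 805 and 817 CPM on HF and between 746 and 841 CPM on GSF. The list thus overlapped between the diets, with 0 genes called higher, none at 0 in all libraries, and the mannosidase gene LManII called lower at -0.40 (SE 0.09, adjusted p = 0.0397). LManII fell from a mean of 344 to 260 CPM, while the myosin genes Myo31DF (129 and 156 CPM) and Myo61F (258 and 282 CPM) had higher means on GSF, and the block called Myo31DF higher (adjusted p = 0.0380). The midgut progenitor list (6 genes) summed to between 55.1 and 63.3 CPM on HF and between 63.1 and 67.8 on GSF. The enteroendocrine list (8 genes) summed to 136 to 158 CPM on HF and 144 to 157 on GSF. At an unadjusted p under 0.05, 4 of the 8 were higher and 1 lower, with 0 called. Among all tested genes 9.77% were higher at that unadjusted p, and 2.0% were called higher and 3.14% lower. The block called pros higher (adjusted p = 0.00986) and CCHa2 lower (adjusted p = 0.0449). With the length trend removed pros was also called higher (adjusted p = 0.0407). The hindgut list (5 genes) summed to 67.3 to 76.9 CPM on HF and 62.2 to 70.2 on GSF. Of these 5, 4 had log2 fold changes below 0, with 0 called, and the block called otp higher. Neuronal markers (9 genes) summed to between 773 and 808 CPM on HF and between 762 and 947 on GSF. The block called 5 of the 9 higher, against 6.80% of all tested genes. With the length trend also removed it called 3 higher, against 5.42% of all tested genes. Glial markers (6 genes, nrv2 among them) summed to lower values on GSF, between 910 and 959 CPM beside 995 to 1010 CPM on HF. This sum rested on the glutamine synthetase gene Gs2, with means of 619 CPM on HF and 535 CPM on GSF (adjusted p = 0.109). Of the 6 glial markers 3 had a log2 fold change above 0, and Gat was called higher with the block. All 5 Malpighian tubule markers had log2 fold changes below 0 (median -0.11), with 0 called and 1 lower at an unadjusted p under 0.05, and their sums overlapped, at 460 to 525 CPM on HF and 441 to 488 CPM on GSF. The tracheal markers (3 genes) summed to between 38.1 and 40.3 CPM on HF and between 39.5 and 50.8 on GSF, with Gasp called higher with the block (adjusted p = 0.0439). The mean of Gasp was 18.7 CPM on HF and 24.9 CPM on GSF. The other tracheal markers, btl and trh, had log2 fold changes below 0, at -0.14 and -0.11. The part of these markers in the results on the junction genes was not tested.

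Genes of related function gave the surroundings of these results. Of 17 other septate junction genes, 3 were called higher and 0 lower, with a median log2 fold change of 0.24. Among all tested genes 2.0% were called higher and 3.14% lower. The log2 fold change was 0.41 (SE 0.09, adjusted p = 0.0408) for bbg, a PDZ protein of the midgut septate junction. It was 0.36 (SE 0.07, adjusted p = 0.0245) for Galphao, a G protein subunit, and 0.60 (SE 0.12, adjusted p = 0.0336) for the lipid phosphatase gene wun2. The call of bbg was lost with the length trend removed (0.29, adjusted p = 0.145). The wun2 gene is low, at 5.60 CPM on HF and 8.44 CPM on GSF. The block called 7 of these 17 genes, all higher, adding moody, M6, nrv3 and CG45049, where it called 6.80% of all tested genes higher. The beta subunit gene nrv3 had a log2 fold change of 0.42 (SE 0.11, adjusted p = 0.0740, or 0.00867 with the block).

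Of 23 other adherens and polarity genes, 0 were called in either direction. At an unadjusted p under 0.05, 4 were higher and 0 lower, and the block called Src64B alone. Among all tested genes 9.77% were higher at that unadjusted p, and the block called 6.80% higher. The main test called 2.0% of all tested genes higher and 3.14% lower. With such shares a count of 0 in lists as short as those given here says little about the list. The median of these 23 genes was 0.10, or 0.01 with the length trend removed. Of 7 tested gap junction innexins, 0 were called, with 1 higher at an unadjusted p under 0.05 and shakB alone called with the block, and their median was 0.04. Integrin and basement membrane genes link the cells to the matrix rather than to each other. Of 17 of these, 0 were called, 5 were higher and 0 lower at an unadjusted p under 0.05, and the block called 4 (mys, Ilk, LanB1 and trol), with a median of 0.12. The share of genes with separate diets and GSF above HF was 35.3% of the integrin and basement membrane genes, 30.4% of the other adherens and polarity genes, 47.1% of the other septate junction genes and 36.1% of the 36 genes, against 12.3% of all tested genes. The median exonic lengths were 5916, 7640.5, 2541 and 4605 bp in that order, against 1767 bp for all tested genes. In the longest quintile of tested genes 22.3% were separate in this way. The part of gene length in these shares was not tested.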

How the data were processed

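Flies, diets and libraries are described above. Per the methods of the study, the authors trimmed reads with Trimmomatic, aligned them with HISAT2 (version 2.1.0) to the bdgp6 transcriptome, converted files with SAMtools (version 1.8) and counted reads on genes with Rsubread. The deposited files hold the authors' raw counts per gene and library, without normalization. The strand setting and annotation release are not given in the sources used here. A deposited edgeR table held 4 columns of the authors' own comparison, which were not used, and only its pairs of gene ID and symbol were read. Symbols were matched through this table and the reference tables, and all 37 names were found. Coordinates and exonic lengths (the union of exons) are from the Ensembl annotation of BDGP6.54.

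The analysis used R 4.3.3 and its packages edgeR (4.0.16) and DESeq2 (1.42.0). Genes under 1 CPM in more than 3 libraries were dropped, libraries were scaled by TMM, and all 6 libraries entered edgeR's two-sided quasi-likelihood test with diet as the only term and Benjamini-Hochberg adjustment over 13373 genes. The study's methods name edgeR, the CPM filter and the thresholds (p under 0.01, FDR under 0.05). SE is the absolute log2 fold change over the square root of F. The plot of levels by library uses log2 of TMM-scaled CPM without a prior count. The length trend was a spline of log2 CPM (prior count of 2) on log2 exonic length with 5 degrees of freedom per library, entered as offsets, on 13277 genes with a length. The main fit, the replicate block, the size factors of DESeq2, DESeq2, the exact test and the removal of the length trend were tested on simulated data. The other fits were not.

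The genes, the related lists and the marker lists were chosen with earlier results of these data known. Every one of the 36 genes is named, and in the related lists the genes called. The study calls the libraries biological replicates, and whether they came from separate vials is not given in the sources used here, so p-values measure the spread between these libraries. Libraries with the same replicate number deviated from their diet means together. Their correlations across genes were 0.188, 0.247 and 0.476, against -0.309 to 0.115 for other pairs. Deviations from a diet mean sum to 0 over the 3 libraries, so these correlations do not vary independently of one another. Because same-numbered libraries deviated together, the number was entered as a block in an alternative fit, while the main test was not paired. Over the 36 genes alone the same-numbered correlations were 0.206, -0.192 and 0.628, and 0.251 for HF replicate 1 with GSF replicate 2, so the calls made with the block alone rest on the pairing seen across all genes. This rests on the counts alone, since no source says what a number shares. Alternatives were the replicate block, size factors of DESeq2 or library size alone, no filter, DESeq2, the exact test, ribosomal RNA genes left out, the length trend removed with and without the block, an unadjusted p, and each library left out. In the lists 65 of 66 related entries and 91 of 91 marker entries matched, and scb was not analysed here.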

Additional observations from a re-analysis of the deposited data

How the results depend on the processing

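The count of 4 junction and polarity genes called higher was also 4 with the size factors of DESeq2, with library size alone, without a filter and without ribosomal RNA genes, and the same 4 genes were called in each. It was 7 with DESeq2, 6 with edgeR's exact test, 12 with the replicate block, 3 with the length trend removed, 8 with that removal and the block together, and 15 at an unadjusted p under 0.05. With each library left out in turn it ran from 0 to 4. No gene was called lower in any of these fits. Beyond the calls given beside each gene, the replicate block changed no other call among the 36 genes. The adherens and polarity median was 0.07 with the length trend removed, with and without the block, and the cause was not tested. The direction of small estimates turned in some fits. With library size alone the log2 fold change was 0.0038 for vari and 0.0048 for Atpalpha. With the length trend removed, with and without the block, it was -0.01 for nrv2, -0.02 for arm, -0.03 for baz, -0.02 for sdt, -0.01 for crb and -0.10 for scrib. With each library left out in turn it ran from -0.05 to 0.14 for hoka, -0.0021 to 0.24 for Nrx-IV, -0.03 to 0.22 for Cont, -0.05 to 0.22 for pck, -0.01 to 0.25 for Lac, -0.05 to 0.06 for vari, -0.05 to 0.06 for Atpalpha, -0.05 to 0.02 for nrv1, -0.0017 to 0.07 for nrv2, -0.01 to 0.25 for Tsf2, -0.01 to 0.41 for crok, -0.03 to 0.07 for arm and -0.02 to 0.07 for scrib. None of these genes was called in any fit. In the ratios of partner genes, paired by replicate number, the sign-flip test allows no p below 0.25. The 4 separate pairs had to reach this value, so the test adds nothing to their separation. The 36 genes had at least 376 counts per library, a count of crok, which also had the widest interval. With 3 libraries per diet the half-width of the 95% intervals ran from 0.15 to 0.46 on the log2 scale.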
